A study of Mus musculus with 12 samples.

Results

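GDC-0623, an allosteric MEK inhibitor (MEKi), was compared with its solvent DMSO after 72 h in the mouse colon carcinoma line MC38. The comparison rested on the 6 of 12 arrays labelled 72 h, chosen by title: 3 arrays of cells exposed to 100 nM GDC-0623 and 3 arrays of cells exposed to DMSO. The cells grew as a monolayer, received drug or DMSO on the day after seeding, and were harvested 24 h or 72 h later. All 12 arrays came from the 1 line MC38, and the labels name no genetic change or other agent in any group. The labels call the 3 samples of each group biological replicates without saying what separated them, so the p-values measure only the spread between these samples. Each of 18193 genes was represented by its probe set with a single gene symbol and the highest mean over the 12 arrays. Values are log2 expression values, and readings of about 2 to 5 lie in the background of the array, where a change may be understated. A gene was called when its adjusted p in limma's moderated test, corrected by Benjamini-Hochberg over 45037 probe sets, was under 0.05.

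MEK is the kinase that phosphorylates and activates ERK, at the end of the chain from growth factor receptors through RAS and RAF. Active ERK enters the nucleus and drives immediate early transcription factors such as EGR1 and FOS family members, ETS factors, MYC and G1 cyclins. ERK also induces its own inhibitors, among them the dual-specificity phosphatases (DUSP), the Sprouty and the Spred proteins, so the transcripts of these inhibitors are used as a readout of pathway output. In carcinoma cells with an active RAS pathway the same signal is known to promote growth and biosynthesis and to dampen interferon responses.

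At 72 h, 2519 genes were higher under MEKi (13.8%) and 2261 were lower (12.4%). The median change over all 18193 genes was −0.03. Large changes were mostly rises: 528 genes were at least 2-fold higher and 156 at least 2-fold lower, and beyond 8-fold there were 55 and 2 genes. The median size among called genes was 0.51. Of the called genes, 4777 had no overlap between the 3 MEKi and the 3 DMSO arrays and 3 had some overlap. With 3 arrays per group a call all but requires such a gap, so this count is not separate evidence of a change. Among the 7468 genes with a mean under 5 over the 6 arrays, 2.91% were called higher and 2.52% lower. Among the 3666 genes with a mean of 9 or above, the shares were 20.9% and 24.2%.

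Replicate 1 of the 72 h GDC-0623 group stood apart from the other two arrays of its group. Its score on the first principal component, which held 58.6% of the variance of the 12 arrays, was 77.4, against 44.8 and 49.8 for replicates 2 and 3 and −26.3 to −22.1 for the 3 DMSO arrays of the same time. It was the MEKi array farthest from the DMSO mean in 629 of the 684 genes called at 2-fold or more (92.0%). Without it, 2100 genes were higher and 1826 lower, and 422 and 124 of them reached 2-fold. The median size of these 684 changes was 1.44 with it and 1.28 without it. The difference between 3′ and 5′ probe sets, a measure of RNA integrity, was −0.16 to −0.06 for Gapdh and 0.09 to 0.16 for beta-actin on the 12 arrays, and on this array it was −0.11 and 0.10.

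**Figure D1:**
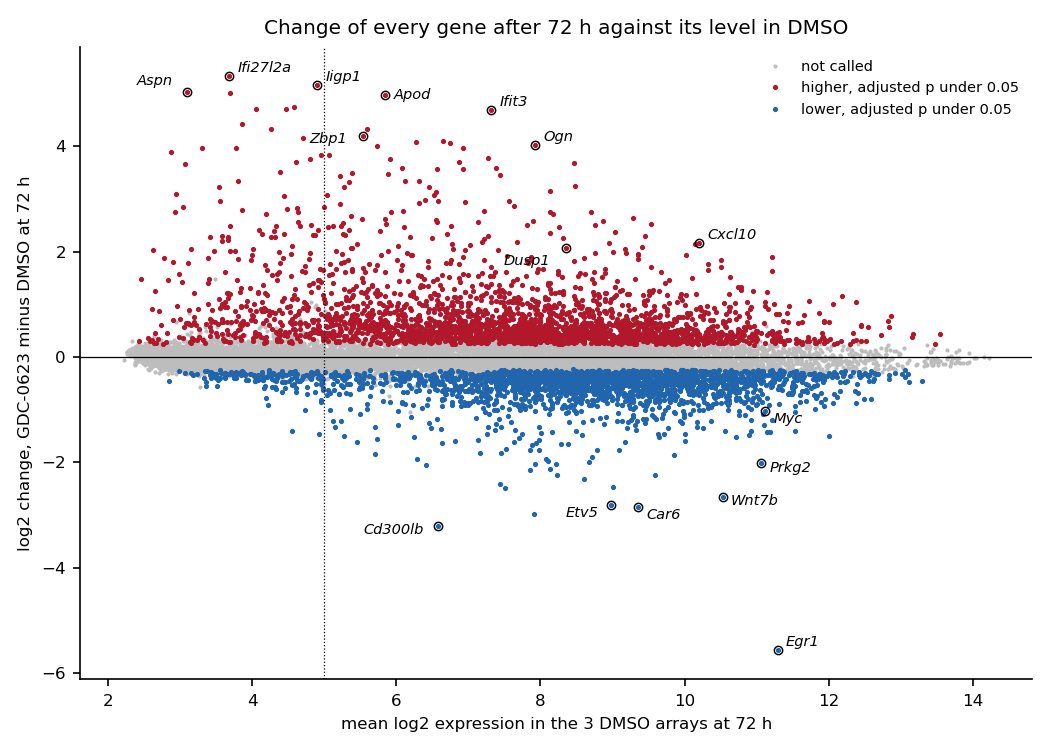
Change of every gene at 72 h. The x axis is the mean log2 level on the 3 DMSO arrays, the y axis the log2 change under 100 nM GDC-0623, coloured points are genes called by limma and the dotted line at 5 marks the upper end of the background range. The rises reached 5.34, and 14 of the 25 largest started from a DMSO mean under 5, while Egr1 at −5.57 lay far below every other fall.

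Several genes known as outputs of ERK were lower at 72 h, and others were not. Of 15 ERK phosphatases, Sprouty and Spred genes, 8 were lower and 2 higher, with a median of −0.53, and without DMSO replicate 2 or 3 the counts were 6 and 1. Without MEKi replicate 1 the median was −0.31. Egr1, an immediate early zinc finger factor, read 11.74, 11.58 and 10.55 on DMSO replicates 1 to 3 and 6.61, 5.73 and 4.83 on MEKi replicates 1 to 3. Every MEKi array lay far below every DMSO array, and replicate 3 was the lowest array of both groups. The change was −5.57 ± 0.43 (SE), a 47.4-fold fall with an adjusted p of 5.7e-05 in limma, and at 24 h it was −4.90. Dusp4, a nuclear phosphatase that inactivates ERK, read 8.85, 8.57 and 8.42 under DMSO and 6.06, 6.57 and 6.29 under MEKi, with no overlap and a change of −2.31 ± 0.15 (adjusted p = 2.22e-05 in limma). Dusp6, the cytoplasmic ERK phosphatase, fell by 1.49 and Dusp5, its nuclear relative, by 1.47. Spred3, Spred2 and Errfi1, feedback inhibitors of RAS signalling or of the EGF receptor, fell by 0.96, 0.72 and 0.73. Spry1 (−0.09) and Spry2 (0.33) were not called.

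Dusp1, which encodes a phosphatase that acts mainly on the stress kinases p38 and JNK, ran the other way. It read 8.85, 8.49 and 7.75 under DMSO and 11.34, 10.31 and 9.62 under MEKi, so every MEKi array lay above every DMSO array. The change was 2.06 ± 0.40 (adjusted p = 0.00647 in limma). Among 25 immediate early and ETS factors, 8 were lower and 3 higher (5 higher without MEKi replicate 3), and the list median of −0.05 was near that of all genes and became 0.01 without DMSO replicate 1. The falls were Egr1, Egr2, the PEA3 ETS factors Etv5 (−2.81) and Etv4 (−1.26), the AP-1 member Fosl1 (−1.42), Ets2 (−0.84), Ier2 (−0.91) and Maff (−0.74). The AP-1 members Fosl2 and Jund were higher by 0.98 and 0.79. Fos itself read 9.81, 8.43 and 7.18 under DMSO and 11.27, 9.22 and 7.64 under MEKi. The groups overlapped, and with a change of 0.90 ± 0.86 the gene was not called (adjusted p = 0.542 in limma).

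The kinases of the cascade were measured with little change. Map2k1 and Map2k2, which encode the drug targets MEK1 and MEK2, changed by 0.18 (adjusted p = 0.165) and 0.06 (adjusted p = 0.715), and neither passed the limma test. Braf (−0.03), Araf (0.16) and Nras (−0.12) were not called either. In the 17-gene cascade list 3 genes were lower (17.6%, against 12.4% over all genes) and 1 higher (5.88%, against 13.8%). Rasa1, a GTPase activator that switches RAS off, fell by 1.19, and Mknk2, a kinase downstream of ERK that phosphorylates eIF4E, rose by 0.55.

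Upstream of RAS, single ligands and receptors changed in both directions. Of 8 EGF family ligands 1 was higher, a share near the 13.8% over all genes, and 2 were lower, against 12.4%. Means under 5 in both groups were found for 4 of the 8. Ereg, the EGF receptor ligand epiregulin, read 9.06, 9.28 and 8.92 under DMSO and 7.45, 7.56 and 6.93 under MEKi, without overlap. It fell by 1.77 ± 0.16 (adjusted p = 0.000143 in limma), and Hbegf, another ligand of the same receptor, fell by 1.97. Egfr itself rose by 0.73, and Nrg1, a ligand of ErbB3 and ErbB4, rose by 0.69. Among 24 receptor tyrosine kinases, 4 were higher and 4 lower (16.7% each, near the 13.8% and 12.4% over all genes). Met, the hepatocyte growth factor receptor, fell by 1.47, Epha2 by 0.81 and Erbb3 by 0.68, while Pdgfrb, a platelet-derived growth factor receptor, rose by 1.29 and the collagen receptor Ddr1 by 0.98.

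**Figure D2:**
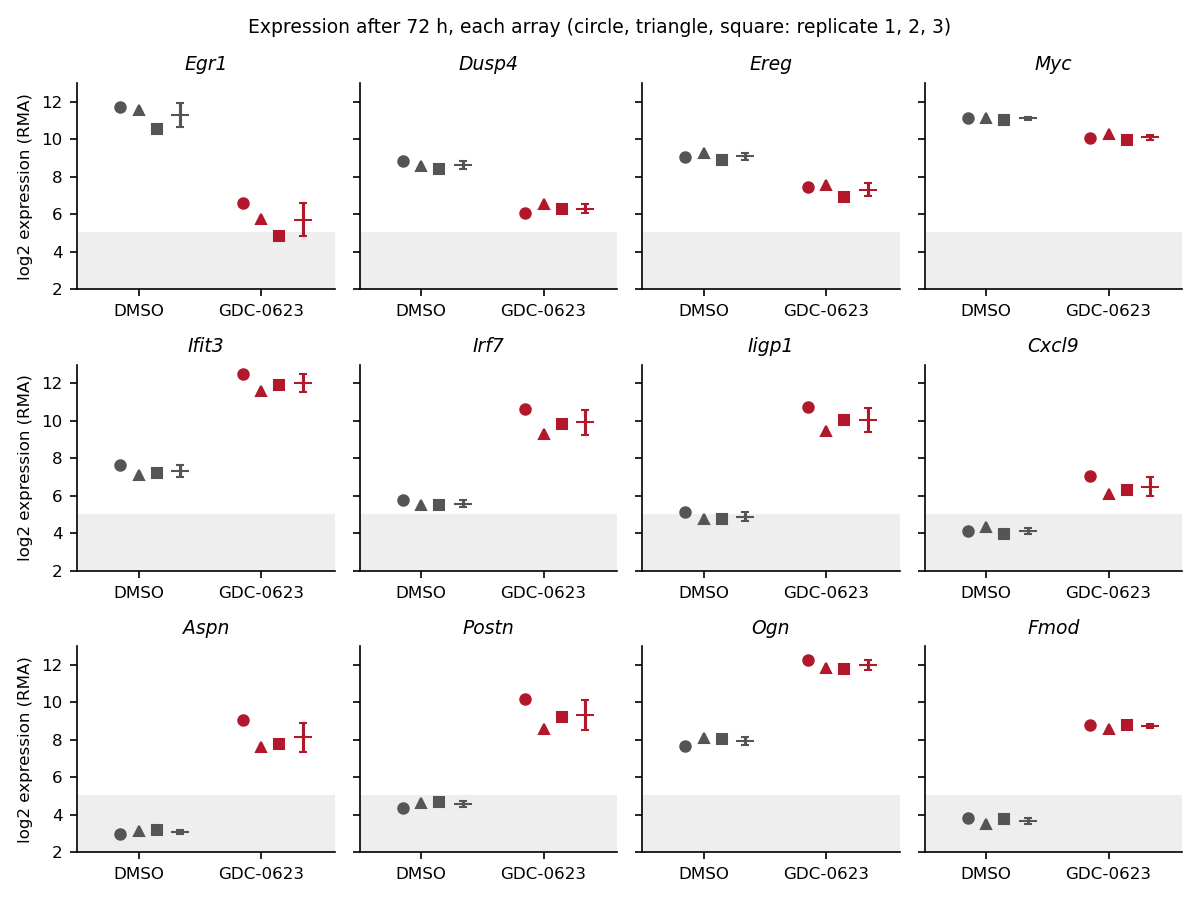
Log2 level of 12 genes on the 6 arrays at 72 h. Circles, triangles and squares are replicates 1, 2 and 3, bars are the group mean ± SD (n = 3) and the grey band is the background range from 2 to 5. The groups do not overlap for any of the 12 genes. Replicate 1 of GDC-0623 is the highest MEKi array for Ifit3, Irf7, Iigp1, Cxcl9, Aspn, Postn and Ogn. It is also the highest for Egr1, where it lies nearest to DMSO.

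Myc fell, while the lists of growth genes differed in how far they moved. Myc read 11.16, 11.16 and 11.04 under DMSO and 10.05, 10.26 and 9.98 under MEKi, a narrow spread in both groups with no overlap. The fall was 1.02 ± 0.09, or 2.03-fold (adjusted p = 0.00014 in limma). Mxd4, whose product competes with MYC for its partner MAX, read 5.96, 5.81 and 5.91 under DMSO and 8.37, 7.65 and 7.73 under MEKi, a 4.07-fold rise. In the 11-gene MYC network 6 genes were higher and 2 lower. The 6 dropped to 2 without DMSO replicate 1 or 2 and to 3 without DMSO replicate 3 or without MEKi replicate 1 or 3.

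Ribosome biogenesis genes were lower with 1 exception. Of 32 genes for rRNA transcription and processing, 31 were lower and none higher, with a median of −0.60, and 29 of them were lower without MEKi replicate 1. The gene not called was Polr1a, the largest subunit of RNA polymerase I, at −0.26. Nop16, a nucleolar assembly factor, fell by 1.08, Polr1b by 0.93, and Dkc1, the pseudouridine synthase of box H/ACA particles, by 0.84. The mean level of the list lay between 10.19 and 10.28 on the DMSO arrays and between 9.40 and 9.75 on the MEKi arrays. The ribosomal proteins themselves moved little: the median over 21 genes was −0.12, and Rpl14, at −0.66, was lower under every omission of 1 array.

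Nucleotide synthesis followed the same direction. Of 25 genes, 20 were lower and none higher, with a median of −0.54. Upp1, which cleaves uridine in salvage, fell by 2.24. The serine hydroxymethyltransferases Shmt1 and Shmt2, which feed folate-bound carbon into purines and thymidylate, fell by 1.19 and 0.94, the mitochondrial folate enzyme Mthfd2 by 0.92 and Ppat, the first enzyme of purine synthesis, by 0.90. In the 7-gene polyamine list, with a median of −0.06, Odc1 and Srm, which make putrescine and spermidine, fell by 0.94 and 0.71 and 1 gene was higher, Oaz2, an antizyme that restrains ornithine decarboxylase (0.37), a call lost with the mean of its probe sets and without DMSO replicate 2.

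Of 30 DNA replication genes 15 were lower and none higher, with a median of −0.39. The count fell to 7 when any of the 3 DMSO arrays was left out and to 12, with a median of −0.24, without MEKi replicate 1. Cdt1, the licensing factor that loads the replicative helicase, read 11.50, 11.54 and 11.56 under DMSO and 10.07, 10.69 and 10.68 under MEKi, a fall of 1.05 ± 0.15 (adjusted p = 0.00155 in limma). Rfc4 and Gins1, of the clamp loader and the helicase complex, fell by 0.73 and 0.70. Of 28 mitosis genes 4 were lower (14.3%, near the 12.4% over all genes) and none higher, and the median of −0.23 became −0.12 without MEKi replicate 1. The count of lower genes was 2 without DMSO replicate 1 and 8 without MEKi replicate 2. Bub1, a spindle checkpoint kinase, fell by 0.55. Mki67, the proliferation marker, read 10.58, 10.62 and 10.52 under DMSO and 10.12, 10.56 and 10.71 under MEKi, and the groups overlapped (change −0.11, adjusted p = 0.656 in limma; 0.06 without MEKi replicate 1).

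Among 20 CDK inhibitors and quiescence genes, 9 were higher and 1 lower, with a median of 0.37 (9 and 3, with a median of 0.20, without MEKi replicate 1). Cdkn1b, the inhibitor p27, read 9.28, 9.54 and 9.49 under DMSO and 10.75, 10.36 and 10.37 under MEKi, a rise of 1.06 ± 0.12 (adjusted p = 0.000471 in limma). Klf2, a quiescence-associated transcription factor, rose by 1.20, Sesn3, a stress-induced inhibitor of mTORC1, by 1.08 and Ccng2, an atypical cyclin, by 0.93. Cdkn1a, the inhibitor p21, was lower by 0.38, a call that was lost without any of the 3 DMSO arrays. Of 20 G1 cyclins, kinases and E2F factors, 6 were lower and 1 higher (3 lower without DMSO replicate 1, 2 without DMSO replicate 3). The 1 higher gene was Ccnd3, a D-type cyclin, at 0.63, with 1 of its 3 probe sets higher, and with the mean of its probe sets the change was 0.12 and not called (adjusted p = 0.253 in limma). Ccnd1, another D-type cyclin, was lower by 0.65 with 3 of 3 probe sets lower (adjusted p = 0.0382 in limma). That call was lost without any 1 of the DMSO arrays, and without MEKi replicate 1 the change was −0.39.

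The amino acid response directed by the transcription factor ATF4 was lower. Of 21 genes 14 were lower and none higher, with a median of −0.59, and at 24 h 11 were lower and 1 higher, with a median of −0.29. Slc7a11, the cystine importer, read 8.03, 8.14 and 8.07 under DMSO and 5.95, 6.42 and 6.06 under MEKi. Each group was tight and far from the other, and the fall was 1.94 ± 0.12, or 3.83-fold (adjusted p = 2e-05 in limma). Cth, which makes cysteine from cystathionine, read 9.03, 9.09 and 8.91 under DMSO and 6.15, 6.95 and 6.56 under MEKi, a 5.49-fold fall. Trib3, a pseudokinase target of ATF4, fell by 1.41, Psph, the last enzyme of serine synthesis, by 1.08, Chac1, which degrades glutathione, by 1.00, Asns, the asparagine synthetase, by 0.76 and Atf4 by 0.42. For Cth, Slc7a11 and Psph the fall at 72 h exceeded that at 24 h (difference −1.41, −0.99 and −0.63, adjusted p = 0.00753, 0.0229 and 0.0415 in limma over the 12 arrays). Mean Cth was 7.14 under DMSO and 6.1 under MEKi at 24 h, and 9.01 and 6.55 at 72 h. Mean Slc7a11 was 6.61 and 5.67 at 24 h, and 8.08 and 6.14 at 72 h. For both genes the DMSO level was thus higher at 72 h than at 24 h, and the MEKi level was not lower.

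Interferon-stimulated genes rose across families. All 10 IFIT and OAS genes, which sense and restrict viral RNA, were higher, by 1.13 to 4.69, with a median of 2.74. All 10 interferon-inducible GTPases of the IRG and GBP families were higher, with a median of 2.86, as were 18 of 20 other antiviral effectors (median 1.64) and 14 of 15 genes of the ISG15 system and the interferon-induced PARP and TRIM genes (median 1.98). Without MEKi replicate 1 the counts for the IFIT and OAS genes stayed at 10. Members of these families are similar in sequence, and cross-hybridisation between their probe sets was not tested.

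The promoters of these genes are shown because several carry the core letters of the interferon-stimulated response element, a sequence known from the promoters of interferon-induced genes. The sequences are 100-base stretches of RefSeq promoter windows on GRCm38.p6, given 5′ to 3′ on the strand of the gene, and capitals mark matches to GAAANNGAA or its reverse complement TTCNNTTTC. Ifit3 lies on the plus strand of chromosome 19 (chr19:34583381-34583480), Oas1a on the minus strand of chromosome 5 (chr5:120907526-120907625), Gbp3 on the plus strand of chromosome 3 (chr3:142559944-142560043) and Irgm2 on the plus strand of chromosome 11 (chr11:58214867-58214966). Each is among the largest rises of its family whose window holds the motif, and 1 match lies 102 to 94 bases before the start in Ifit3, 14 to 6 in Oas1a, 38 to 30 in Gbp3 and 64 to 56 in Irgm2.
Ifit3: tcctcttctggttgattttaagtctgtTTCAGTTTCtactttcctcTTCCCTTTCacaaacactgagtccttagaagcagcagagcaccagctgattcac
Oas1a: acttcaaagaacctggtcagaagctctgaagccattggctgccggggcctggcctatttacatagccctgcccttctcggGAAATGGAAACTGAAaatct
Gbp3: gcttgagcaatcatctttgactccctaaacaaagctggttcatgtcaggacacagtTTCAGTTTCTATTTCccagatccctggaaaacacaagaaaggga
Irgm2: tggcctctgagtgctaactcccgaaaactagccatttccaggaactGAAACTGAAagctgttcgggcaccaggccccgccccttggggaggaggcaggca

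Among the 14452 genes with a RefSeq window (250 bases before to 50 after a start), 8.70% held the 9-letter core on either strand. The share was 5 of 8 for IFIT and OAS genes (62.5%), 6 of 7 for IRG and GBP genes (85.7%), 6 of 11 for the ISG15, PARP and TRIM list (54.5%) and 6 of 15 for the other antiviral effectors. For the interferons, receptors, STATs and IRFs it was only 3 of 23. Some lists with no gene higher held it too, with 5 of 18 cytosolic ribosomal protein genes and 4 of 22 oxidative phosphorylation genes. In other such lists it was rarer, with 2 of 28 ribosome biogenesis, 1 of 23 mitosis and 0 of 25 DNA replication genes. Of the genes at least 2-fold higher, 76 of 398 held it (19.1%), against 6 of 121 genes at least 2-fold lower (4.96%). A match describes letters in a window and does not show that a factor was bound there.

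Ifit3, an RNA-binding antiviral protein, read 7.66, 7.11 and 7.20 under DMSO and 12.51, 11.61 and 11.92 under MEKi. The lowest MEKi array was far above the highest DMSO array, and the rise was 4.69 ± 0.22, or 25.8-fold (adjusted p = 7.6e-06 in limma). Oas1a, a synthetase of the 2-5A messenger that activates RNase L, read 6.95, 6.62 and 6.66 under DMSO and 11.55, 10.17 and 10.70 under MEKi, a 16.7-fold rise. Gbp3, a guanylate-binding protein, read 7.27, 6.75 and 6.78 under DMSO and 11.47, 10.44 and 10.78 under MEKi, a rise of 3.96 ± 0.24 (adjusted p = 2e-05 in limma). All 3 genes were highest on replicate 1 of each group. Usp18, which removes ISG15 from proteins and restrains the interferon receptor, rose by 4.11, Trim30a by 3.57, Cmpk2, a mitochondrial nucleotide kinase, by 2.97, and Rsad2, the antiviral enzyme viperin, by 2.64.

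Transcription factors and sensors of the interferon system rose with their targets. Irf7, the master regulator of type I interferon genes, read 5.79, 5.49 and 5.49 under DMSO and 10.62, 9.30 and 9.83 under MEKi, a 20.1-fold rise with no overlap (adjusted p = 2.12e-05 in limma). Stat2 rose by 3.32, Irf9 by 2.26, Stat3 by 1.49 and Irf1 by 0.92. Of the 23 interferons, receptors, STATs and IRFs, 14 were higher. Irf5, at −0.29, was lower, a call lost without any 1 of the DMSO arrays or of MEKi replicates 1 and 3. Ifnb1, the interferon-beta gene, stayed in the background, with means of 3.96 under DMSO and 4.10 under MEKi, and was not called (adjusted p = 0.277 in limma). Ifngr1, the interferon-gamma receptor chain, rose by 0.57.

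Of 17 nucleic acid sensors and adaptors, 12 were higher and none lower, with a median of 0.84. Zbp1, a sensor of Z-form nucleic acid, read 5.75, 5.44 and 5.43 under DMSO and 10.31, 9.27 and 9.61 under MEKi. It rose by 4.19 ± 0.23 (18.3-fold, adjusted p = 1.37e-05 in limma), whereas at 24 h its change of 0.09 did not pass the test (adjusted p = 0.707). The RIG-I-like receptors Ddx58, Ifih1 and Dhx58 rose by 2.05, 2.47 and 3.23, and Tlr3, the endosomal receptor for double-stranded RNA, by 1.91. Cgas (−0.04) and Mavs (−0.19) were not called.

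**Figure D3:**
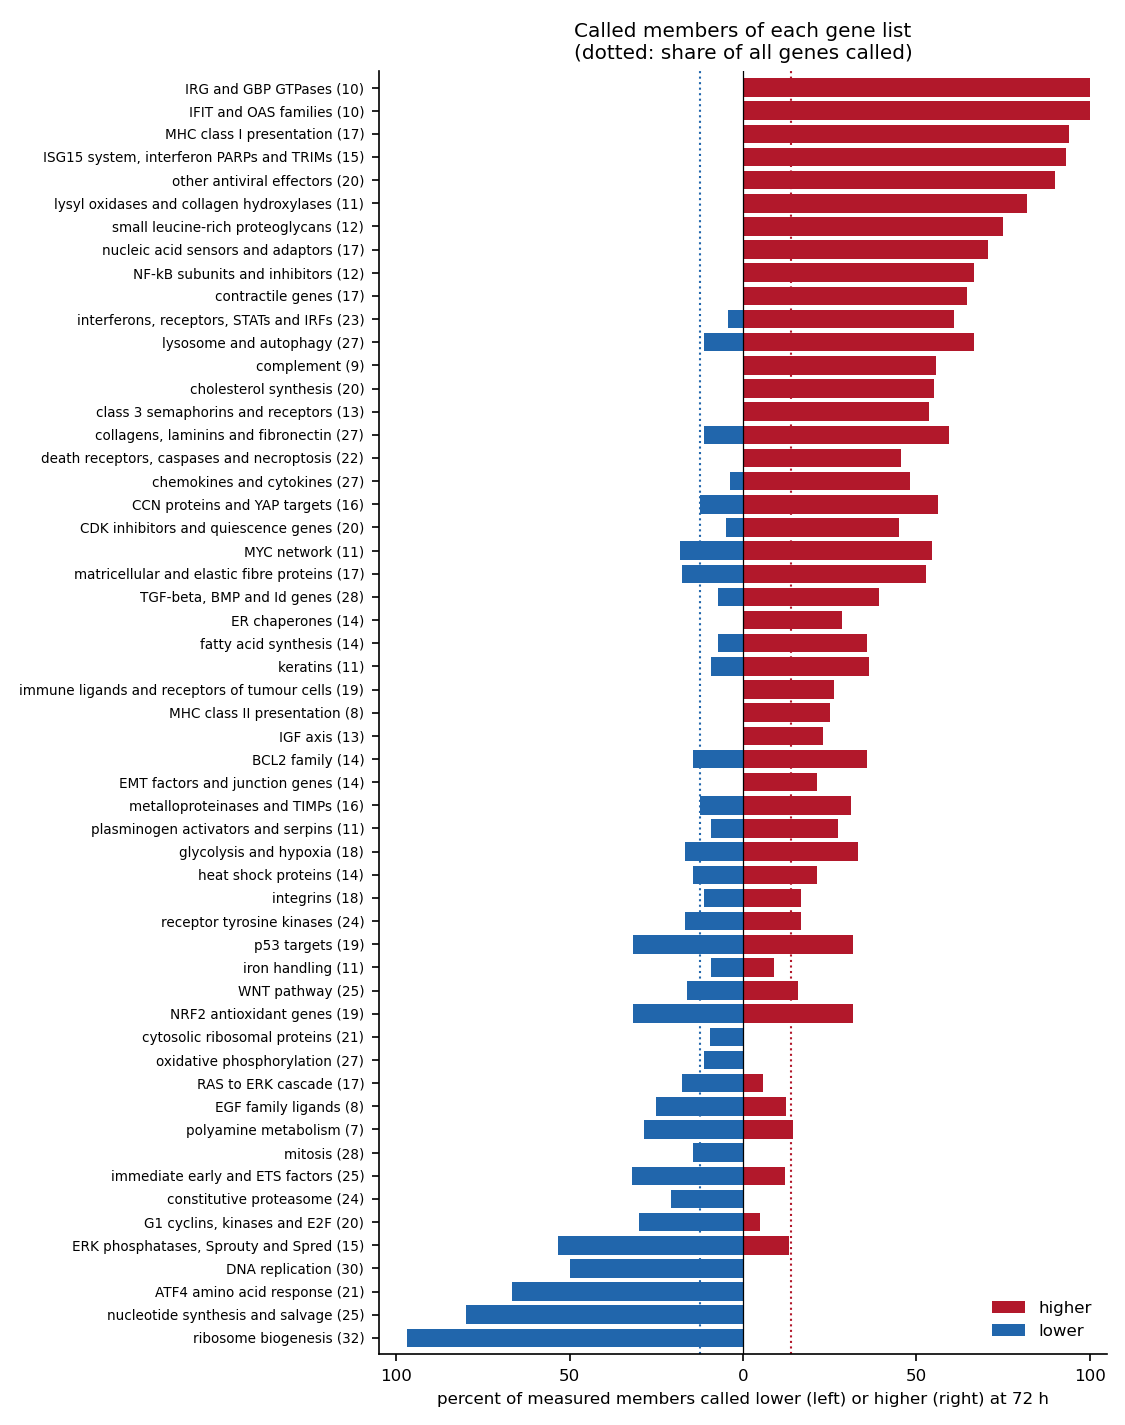
Share of the members of 55 gene lists called higher or lower at 72 h, in percent of the members measured. Dotted lines mark the shares over all genes, 13.8% higher and 12.4% lower. The IFIT and OAS and the IRG and GBP lists reach 100% higher, and ribosome biogenesis and nucleotide synthesis have the largest shares lower.

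Antigen presentation through MHC class I was higher across the pathway. Of 17 genes 16 were higher and none lower, with a median of 0.96, and the mean of the list was 10.45 to 10.52 on the DMSO arrays and 11.31 to 11.57 on the MEKi arrays. Tap1, a subunit of the peptide transporter, read 8.11, 7.99 and 7.99 under DMSO and 9.96, 9.49 and 9.69 under MEKi, a rise of 1.68 ± 0.12 (adjusted p = 3.53e-05 in limma). The immunoproteasome subunits Psmb9 and Psmb10 rose by 1.68 and 1.32 and the peptide editor Tapbpl by 1.23. The class I heavy chains H2-K1 and H2-D1 rose by 0.68 and 0.57 and the light chain B2m by 0.43. MHC class II genes gave 2 of 8 higher (1 without DMSO replicate 1 or 2), and 5 of the 8 had means under 5 in both groups, among them H2-Ab1 (0.01) and Ciita (−0.05).

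Ligands that tumour cells present to immune cells changed in part. Cd274, which encodes PD-L1, read 6.33, 6.20 and 5.98 under DMSO and 8.02, 7.40 and 7.41 under MEKi, with no overlap and a rise of 1.44 ± 0.17 (adjusted p = 0.00048 in limma). Lgals9, a galectin that binds TIM-3, rose by 3.59, the death receptor gene Fas by 1.66, and Cd47, the signal that inhibits phagocytosis, by 1.04. Altogether 5 of 19 such genes were higher and none lower (1 lower without MEKi replicate 1), and 9 had means under 5 in both groups. Cd40 was among these, at 4.31 under DMSO and 4.39 under MEKi (adjusted p = 0.602 in limma).

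Of 27 chemokines and cytokines, 13 were higher and 1 lower (12 and 2 without MEKi replicate 1), and 10 stayed under a mean of 5 in both groups. Cxcl10, a ligand of the T cell receptor CXCR3, read 10.38, 10.25 and 9.96 under DMSO and 12.71, 12.13 and 12.26 under MEKi, a rise of 2.17 ± 0.16 (adjusted p = 4.52e-05 in limma). Cxcl9, which binds the same receptor, read 4.12, 4.32 and 3.99 under DMSO and 7.04, 6.08 and 6.32 under MEKi, so it left the background on all 3 MEKi arrays. The monocyte chemokine Ccl7 rose by 2.04, Cxcl12 by 2.11, and the neutrophil chemokine Cxcl1 by 1.88. Vegfa, the angiogenic growth factor, was the 1 lower gene, at −0.48. In the complement list 5 of 9 genes were higher, with C1s1 and C1ra, the proteases of the classical pathway, at 3.76 and 2.48. Of 12 NF-kB subunits and inhibitors 8 were higher, among them the feedback inhibitors Tnfaip3 (1.93) and Nfkbie (1.49).

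Genes of the extracellular matrix rose as a second large group. Of 12 small leucine-rich proteoglycans, which bind collagen fibrils and growth factors, 9 were higher and none lower, with a median of 2.38. Fmod, fibromodulin, read 3.81, 3.51 and 3.77 under DMSO and 8.78, 8.59 and 8.79 under MEKi. It went from background to a clear level with little spread, a rise of 5.02 ± 0.10, or 32.5-fold (adjusted p = 1.28e-07 in limma). Aspn, asporin, read 2.97, 3.15 and 3.18 under DMSO and 9.03, 7.63 and 7.77 under MEKi, a 33.0-fold rise. Ogn, osteoglycin, read 7.68, 8.08 and 8.03 under DMSO and 12.27, 11.85 and 11.77 under MEKi, and its rise of 4.03 was already present at 24 h (4.33). Dcn and Lum, decorin and lumican, rose by 2.50 and 2.27.

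Postn, the matricellular protein periostin, read 4.39, 4.65 and 4.69 under DMSO and 10.19, 8.56 and 9.21 under MEKi, a 26.8-fold rise (4.74 ± 0.33, adjusted p = 3.35e-05 in limma). Of 17 matricellular and elastic fibre genes 9 were higher and 3 lower. Fbln5, which organises elastic fibres, rose by 3.45 and the adhesive glycoprotein gene Thbs1 by 2.26, while Thbs2 fell by 1.30 and Ltbp1, which tethers latent TGF-beta, by 1.13. Of 27 collagen, laminin and fibronectin genes 16 were higher and 3 lower, with a median of 0.77. Col11a1 rose by 2.42, Lama4 by 2.39, the collagen VI chains Col6a2 and Col6a1 by 1.98 and 1.86, and Fn1 by 1.23, and Col18a1 fell by 1.40. Of 11 lysyl oxidases and collagen-modifying enzymes 9 were higher, with the crosslinking enzyme gene Tgm2 at 2.94 and Loxl1 at 1.56. Timp3, an inhibitor of metalloproteinases held in the matrix, rose by 3.48, and Adamts5, an aggrecan-cleaving protease, by 3.34, whereas Mmp3 and Mmp10, stromelysins, fell by 0.63 and 0.46.

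Contractile genes were higher in 11 of 17 cases and lower in none, with a median of 0.28. Acta2, smooth muscle actin, read 6.25, 5.91 and 6.08 under DMSO and 10.34, 9.12 and 9.53 under MEKi, a rise of 3.58 ± 0.26 (adjusted p = 4.04e-05 in limma). The actin-binding Csrp1 rose by 1.44 and Myl9, a myosin light chain, by 1.62. Without MEKi replicate 1, 8 of the 17 were called.

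Markers of other cell types were set beside these results. MC38 is a colon carcinoma line, yet of 11 colon epithelial markers 8 had means under 5 in both groups, and the mean of the list was 3.92 to 3.97 on the DMSO arrays and 3.83 to 3.94 on the MEKi arrays. Among the defining genes, Cdh1 had a mean of 2.72 under DMSO and 2.61 under MEKi, Vil1 3.12 and 3.30, and Epcam 5.34 and 5.62. Of these 11 markers only Krt8 was called, lower by 0.40, and not without DMSO replicate 3. Of 11 fibroblast and mesenchymal markers 7 were higher and none lower, with a median of 0.91, and the list mean was 8.17 to 8.25 under DMSO and 9.07 to 9.29 under MEKi. Vim, the mesenchymal intermediate filament, had a mean of 13.64 and 13.77 and was not called, and Pdgfra (0.12), Thy1 (−0.04) and Fap (0.27) were not called either, so the markers that rose were Col1a1, Col1a2, Col3a1, Dcn, Lum, Pdgfrb and S100a4. These 7 genes rose with the matrix lists, which share Dcn, Lum and collagens with them, and the part of other cells in those results was not tested. In bulk RNA, more cells of a type and more RNA per cell cannot be told apart. Leukocyte markers had list means of 4.51 to 4.56 under DMSO and 4.47 to 4.56 under MEKi, with Ptprc at 2.75 and 2.87 and 1 of 9 genes called, Lyz2, higher by 0.51 (none without DMSO replicate 2). All 5 endothelial markers were under 5 in both groups.

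**Figure D4:**
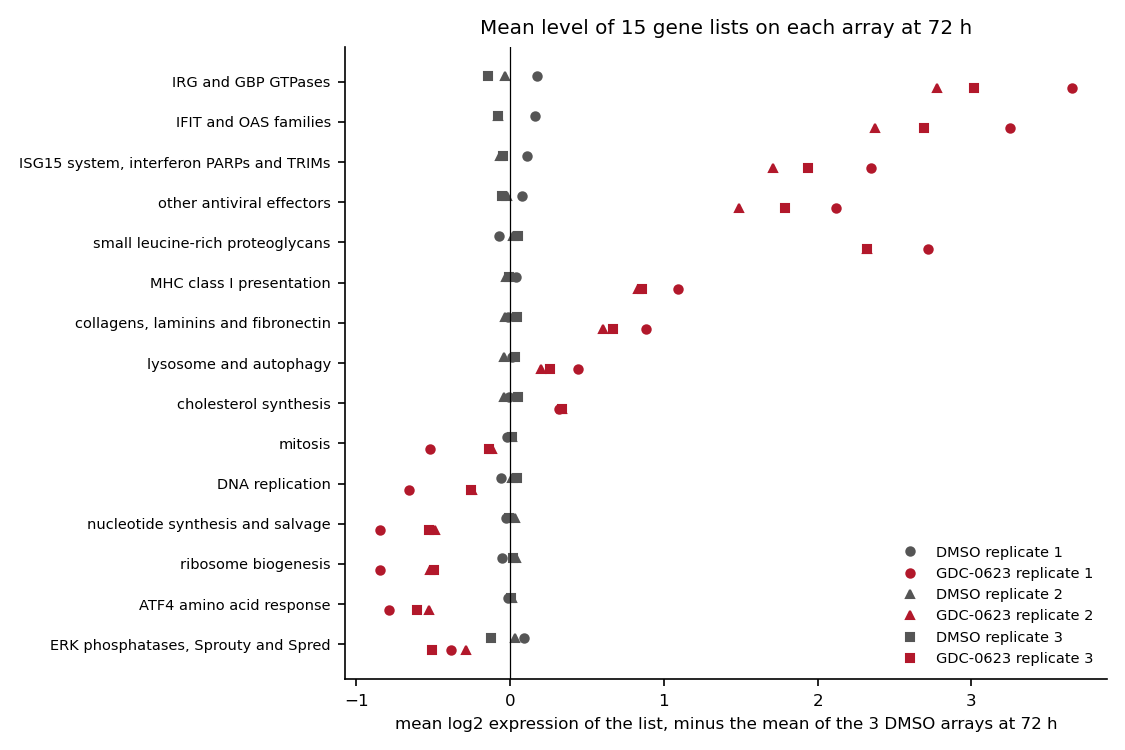
Mean log2 level of 15 gene lists on each array at 72 h, relative to the mean of the 3 DMSO arrays. Each point is 1 array. For the interferon, proteoglycan and ribosome biogenesis lists all 3 MEKi arrays lie on 1 side of the 3 DMSO arrays, and replicate 1 of GDC-0623 lies farthest out.

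Several genes for signals that shape matrix and adhesion also changed. Ccn2, a secreted target of YAP and TGF-beta, read 6.75, 7.09 and 6.77 under DMSO and 11.17, 10.39 and 10.14 under MEKi, a rise of 3.70 ± 0.23 (adjusted p = 2e-05 in limma). Ccn5 and Ccn3 rose by 3.43 and 2.41, and 9 of the 16 CCN and YAP genes were higher and 2 lower. In the 28-gene TGF-beta, BMP and Id list 11 were higher and 2 lower (8 and 0 without DMSO replicate 2). Smad6, which inhibits BMP signalling, rose by 2.32, the dominant-negative helix-loop-helix factor Id2 by 2.18, the ligand gene Tgfb2 by 1.95 and the receptor gene Tgfbr2 by 1.40. Sema3c, a secreted guidance cue, rose by 3.69. Of the WNT genes, the ligand Wnt7b fell by 2.66 and the receptors Fzd2 and Fzd1 rose by 1.29 and 0.75, with 4 of 25 genes higher and 4 lower (16.0% each, near the shares over all genes). Rspo2, which amplifies WNT signals, went from 3.91, 4.48 and 4.39 under DMSO to 9.52, 7.97 and 8.26 under MEKi, with 1 of its 2 probe sets called higher. The integrin chains Itgb2 and Itga6 fell by 2.41 and 1.16 and Itga1, a collagen receptor chain, rose by 1.47, and 3 of the 18 integrin genes were higher (16.7%) and 2 lower (11.1%). Krt14 and Krt16, basal and stress keratins, rose by 2.48 and 2.81 from the background. Of the 11 keratin genes 4 were higher and 1 lower, with a median of −0.03, and 7 had means under 5 in both groups. The transcription factor Snai2 rose by 1.17, Zeb2 by 0.61 and Twist2 by 0.62. In the list of 14 genes of epithelial-mesenchymal transition and cell junctions, 3 were higher (21.4%, against 13.8% over all genes). None was lower, 11 were not called and the median was 0.19.

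In metabolism and stress, lysosomal and autophagy genes gave 18 of 27 higher and 3 lower, with a median of 0.40 (11 higher without DMSO replicate 1, 10 without DMSO replicate 2). Map1lc3a and Gabarap, which coat autophagosomes, rose by 0.86 and 0.82 and Npc2, a lysosomal cholesterol carrier, by 0.68. Cholesterol synthesis genes were higher in 11 of 20 cases, with a median of 0.27 against 0.45 at 24 h, when 16 were higher. Hmgcs1, an early enzyme of the pathway, rose by 0.66 at 72 h and by 1.13 at 24 h. Its rise was smaller at 72 h (difference −0.48, adjusted p = 0.0232 in limma). Of 18 glycolysis and hypoxia genes 6 were higher and 3 lower, with a median of 0.12 (2 higher without DMSO replicate 1 or 2). Slc2a1, the glucose transporter GLUT1, read 11.19, 11.11 and 11.20 under DMSO and 10.27, 10.28 and 10.18 under MEKi, a fall of 0.92. Cryab, a small heat shock protein, rose by 2.98. Of 19 antioxidant genes 6 were higher and 6 lower, with a median of −0.07 (3 higher without DMSO replicate 2 or MEKi replicate 1). Among them Srxn1, Gclc and Gclm fell by 1.01, 0.74 and 0.63 and Gstm2, a glutathione transferase, rose by 2.33.

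Among death genes, Bcl2l11, the pro-apoptotic BIM, read 5.93, 6.12 and 6.29 under DMSO and 7.38, 6.77 and 7.07 under MEKi, a rise of 0.96 ± 0.15 (adjusted p = 0.00241 in limma). Bmf, another pro-apoptotic member of that family, rose by 0.87, and Bok fell by 0.80. Bcl2 was lower too, a call lost without any 1 of the DMSO arrays (changes of −0.74, −0.74 and −0.72). Of 14 BCL2 family genes 5 were higher (35.7%, against 13.8% over all genes) and 2 lower (14.3%, against 12.4%), with a median of 0.06. Without DMSO replicate 2 the counts were 2 and 1. Of 22 death receptor, caspase and necroptosis genes 10 were higher and none lower. Casp1 and Gsdmd, the protease and the pore protein of pyroptosis, rose by 2.05 and 1.26. Gadd45a, a growth arrest gene, fell by 1.47 while its relatives Gadd45b and Gadd45g rose by 1.61 and 1.21.

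Promoter letters were also read for the lowered lists. The E-box CACGTG, a palindrome bound by MYC and related factors, was present in 10.2% of all genes with a window, in 7 of 28 ribosome biogenesis genes and in 9 of 22 lysosome and autophagy genes (40.9%), a list that was mostly higher. The site TGATGNAA, a form of the ATF4 element, was present in 3.24% of all genes and in 7 of 18 genes of the amino acid response (38.9%). Nop2, an rRNA methyltransferase (change −0.67), lies on the plus strand of chromosome 6 (chr6:125131776-125131875), Slc7a11 on the minus strand of chromosome 3 (chr3:50443614-50443713) and Chac1 on the plus strand of chromosome 2 (chr2:119351003-119351102). The stretches are from RefSeq on GRCm38.p6, 5′ to 3′ on the strand of the gene, with the E-box in capitals for Nop2 and the ATF4 letters or their reverse complement in capitals for the others, a pair shown after their values were seen.
Nop2: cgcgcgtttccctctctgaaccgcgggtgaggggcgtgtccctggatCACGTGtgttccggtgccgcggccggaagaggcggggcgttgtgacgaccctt
Slc7a11: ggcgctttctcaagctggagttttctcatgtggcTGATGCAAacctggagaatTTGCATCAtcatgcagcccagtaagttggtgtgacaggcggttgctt
Chac1: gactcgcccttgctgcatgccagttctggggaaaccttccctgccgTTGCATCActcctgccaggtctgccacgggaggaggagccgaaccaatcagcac

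The 72 h state was then set beside that at 24 h, measured on 6 other arrays. At 24 h, 2421 genes were higher (13.3%) and 1497 lower (8.23%). Of the genes higher at 72 h, 1709 were higher at 24 h too, which is 67.8% of the 72 h list and 70.6% of the 24 h list. Of the genes lower at 72 h, 1080 were lower at 24 h, which is 47.8% and 72.1%. When arrays were scaled on their hybridization controls, 90.5% of the 24 h calls were higher in place of 61.8%, and the lower overlap was 315, while at 72 h the share moved only from 52.7% to 56.7%. The effect at 72 h minus that at 24 h was tested over all 12 arrays, and it was above 0 for 295 genes (1.62%) and below 0 for 266 (1.46%). With the hybridization controls 34.4% of these calls were above 0 in place of 52.6%. The median of all genes moved with this scaling from −0.03 to 0.14 at 24 h and from −0.01 to −0.17 for the difference.

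Antiviral genes had larger effects at 72 h in most cases. The difference was above 0 for 8 of 10 IFIT and OAS genes, 15 of 20 other antiviral effectors, 13 of 15 of the ISG15, PARP and TRIM list and 7 of 10 IRG and GBP genes. For IFIT and OAS genes the median rose from 0.31 at 24 h, when 4 of 10 were called, to 2.74. Ifi27l2a, a small interferon-induced membrane protein, read 3.74, 3.54 and 3.76 under DMSO and 9.72, 8.36 and 8.99 under MEKi at 72 h, a change of 5.34 against 0.23 at 24 h (difference 5.12). Of the MHC class I genes 14 of 17 were already called at 24 h and 4 had a larger effect at 72 h, among them Tap1 (0.57 at 24 h). Cd274 changed by 0.25 at 24 h and its effect was larger at 72 h by 1.19 (adjusted p = 0.00626 in limma).

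For the ERK output genes Egr1, Dusp4, Etv5, Fosl1, Ereg and Myc the difference between the times was between −0.67 and 0.65 with SEs of 0.16 to 0.51, and none of them passed the test. In the immediate early and ETS list 2 of 25 genes had a difference below 0 and none above, Ets2 (−0.96) and Jund (−0.70). Among ERK phosphatases, Sprouty and Spred genes 1 of 15 had a difference above 0 and none below. Of ribosome biogenesis genes 29 of 32 were lower at 24 h. Among the 8 small leucine-rich proteoglycans with a larger effect at 72 h, Aspn changed by 0.76 at 24 h (difference 4.29) and Fmod by 2.80 (difference 2.23). Bok (difference −0.98) was called at 72 h and not at 24 h, at 0.19.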

How the data were processed

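RNA from MC38 cells was labelled with biotin and hybridised to Affymetrix mouse GeneChip arrays, 1 sample per array. The authors background-corrected, quantile normalised and summarised the arrays by robust multichip averaging (RMA, also named in the submitters' processing notes), and the deposited values are log2 expression values without detection calls. No version of RMA is stated in the labels or methods. Quantile normalisation removes a shift shared by most genes.

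Of 45101 probe sets, 64 Affymetrix controls were left out. Names came from the platform annotation, with current symbols looked up by gene ID: 34945 had 1 symbol, 932 several and 9160 none. Groups were taken from the sample titles. As in the study's methods, pairs of groups were compared by an empirical Bayes test with Benjamini-Hochberg correction, here limma 3.58.1 in R 4.3.3, using only the 6 arrays of a time, and the difference of effects was tested in 1 fit over 12 arrays. The procedure was tested on simulated data. Alternatives were a shared fit, the replicate block, a filter on dim probe sets (at least 5 on at least 3 arrays), other scalings, variance priors, array weights, probe set means and leaving out each array. With 3 arrays per group, their number limits the precision. Named were the 25 largest rises and falls without overlap and with a mean of at least 6 in the higher group, up to 5 called members per gene list, the 10 largest differences each way, the 5 most variable genes, and members a description needed. The members and all 59 gene lists were chosen with earlier results of these data known. Promoter windows came from RefSeq (GRCm38.p6) and were matched by symbol for 14452 of 18193 genes.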

Additional observations from a re-analysis of the deposited data

Results flagged for a closer look

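The following genes had a drug effect at 72 h that differed from the effect at 24 h in limma's test of the difference over 12 arrays, and they are the 10 largest in each direction with a mean of at least 6 in 1 of the 4 groups. The values are the 72 h change minus the 24 h change on the log2 scale. The effect was higher at 72 h for Ifi27l2a (5.12), Apod (4.53), Aspn (4.29), Zbp1 (4.10), Oas1a (3.76), Gm4951 (3.74), Oas2 (3.69), Phf11d (3.61), Iigp1 (3.54) and Myom2 (3.15). Among these, Ifi27l2a, Apod, Zbp1, Oas1a and Oas2 were not called at 24 h. Myom2, a sarcomere protein, read 3.02 to 3.11 under DMSO and 8.26, 5.99 and 5.94 on MEKi replicates 1 to 3 with replicate 1 far above the other two.

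The effect was lower at 72 h for Cd300lb (−2.72), Car6 (−2.18), Cxadr (−1.91), Avil (−1.90), Nqo1 (−1.90), Taf7l (−1.84), Tcim (−1.76), Gcnt1 (−1.58), Hectd2 (−1.50) and Tubb2b (−1.46). Avil, Taf7l, Tcim and Hectd2 were lower under MEKi than under DMSO at 72 h and were not called at 24 h. From 24 h to 72 h the DMSO means of Avil, Taf7l and Tcim went from 6.47 to 8.22, 4.7 to 6.29 and 4.69 to 6.42. Their MEKi means went from 6.33 to 6.19, 4.59 to 4.35 and 4.39 to 4.37. Car6 went from 6.74 to 9.35 under DMSO and from 6.08 to 6.52 under MEKi. Cd300lb moved in both groups, from 5.23 to 6.58 under DMSO and from 4.75 to 3.38 under MEKi. Gcnt1, a glycosyltransferase that starts branches of O-glycans, was called in opposite directions, at 0.54 after 24 h and −1.04 after 72 h. Nqo1, a quinone reductase, went from 1.06 to −0.85, and its call at 72 h was lost when 1 array was left out (adjusted p up to 0.0519). Tubb2b, a beta-tubulin, was higher at both times, by 2.75 and 1.30.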

How the results depend on the processing

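For the 72 h comparison, 2446 genes were higher and 2198 lower with the replicate block, and leaving out 1 array gave 1795 to 2362 higher and 1461 to 2042 lower, the fewest lower genes without DMSO replicate 2. Scaling on hybridization controls gave 2318 higher and 1772 lower. For the difference between the times, leaving out 1 array gave 193 to 367 genes above 0 and 159 to 294 below 0, the count below 0 was 466 with dim probe sets filtered and 420 with a trended and robust prior, and with hybridization controls 81 genes were below 0 by at least 2-fold. At 24 h, hybridization controls gave 344 lower genes, 33 of them at least 2-fold, 432 at least 2-fold higher, and 315 lower at both times, and leaving out 1 array gave 935 to 1316 lower. The cause was not tested. Of 275 named genes 269 were called, and 41 of these lost their call under some alternative, 38 of them without 1 array. Bcl2l2 turned from 0.37 to −0.03 with the mean of its probe sets. Same-numbered arrays at 72 h correlated in their deviations from the group means at 0.06, 0.09 and 0.14, each highest with its own number, but the labels give no shared origin and the numbers were not taken as pairs. With the replicate block Fos was called (0.90, adjusted p = 0.009 in limma), whereas without MEKi replicate 1 its change was −0.04.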

Other observations

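Outside the gene lists, several of the largest changes at 72 h were in genes with other roles. Apod, the lipid carrier apolipoprotein D, read 5.90, 5.91 and 5.75 under DMSO and 11.46, 10.29 and 10.72 under MEKi, a 31.3-fold rise (4.97 ± 0.24). Cldn1, a tight junction claudin, read 3.73, 3.64 and 3.98 under DMSO and 7.85, 7.69 and 7.73 under MEKi, a rise of 3.97 ± 0.10 (adjusted p = 3.26e-07 in limma). Of its 4 probe sets 2 were called higher and none lower. Aldh1a7, an aldehyde dehydrogenase, rose by 4.15 and Fhl1, a LIM domain protein of muscle, by 3.84, with 1 of the 2 Fhl1 probe sets called higher. Colec10, a collectin, had one of the widest spreads, at 8.78, 6.15 and 6.89 under MEKi. Car6, a secreted carbonic anhydrase, read 9.38, 9.33 and 9.35 under DMSO and 6.16, 6.98 and 6.41 under MEKi, a 7.14-fold fall. Cxadr, the coxsackievirus and adenovirus receptor, fell by 2.99 and the oncofetal chromatin protein gene Hmga2 by 1.87, with 4 of 4 probe sets lower. Adam8, a membrane protease, fell by 2.25 and Gap43, a growth cone protein, by 2.13.

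There were 14 genes that lay under 5 on all 3 DMSO arrays and at 7 or more on all 3 MEKi arrays, among them the receptor tyrosine kinase gene Epha3 (3.35), the lysophosphatidic acid receptor gene Lpar4 (3.05) and Omd, osteomodulin (3.71). No gene went the other way by the same limits.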
